A study of Mus musculus with 12 samples.

Results

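Chemokines are small secreted proteins that call leukocytes to a tissue, and the transcripts of 10 chemokine ligand genes were followed here in mouse liver. The genes were Cxcl1, Ccl2, Cxcl9, Cxcl10, Cxcl14, Cxcl12, Cxcl13, Cxcl16, Ccl5 and Ccl6. They were taken by gene symbol from the deposited expression table, 10 of its 17871 genes. Livers of male ICR mice (spelled IRC in the labels), 3 weeks old at the start, were sequenced in 12 poly(A) RNA libraries, 3 in each of 4 groups. BA10 mice received 1 intraperitoneal injection of busulfan at 40 mg/kg and, from the following day, AOS at 10 mg/kg by daily gavage for 5 weeks. BA0 mice received the same busulfan injection and ddH2O by gavage. A10 mice received AOS at 10 mg/kg for 5 weeks without busulfan, and A0 mice received ddH2O alone. All of the mice were thus gavaged every day. Busulfan is an alkylating drug that damages the DNA of dividing cells, and AOS are alginate oligosaccharides, short sugar chains cut from the alginate of brown seaweed. The labels call the tissue "Cells", while the sampled organ was liver. The summed level of 8 hepatocyte marker genes was 84400 to 114000 CPM in every library (CPM, counts relative to the TMM-scaled library total). The sources used here do not say whether a library came from 1 mouse or from pooled mice, so p-values measure the spread between these libraries.

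Library totals were 16439514 to 18174587 estimated counts. A0 replicates 1 and 2 stood apart from the other libraries. Their TMM factors were 0.851 and 0.879, against 0.97 to 1.077 in the other 10 libraries, and a trend over gene length and GC content took 22.9% and 15% of their variance around the mean profile, against 0.3% to 6.4% elsewhere. Comparisons with A0 were therefore also run without both, which left 1 library in A0 whose spread was assumed to be that of the other groups. In that setting no member was called in any comparison, and the values that moved are given beside the results. The lung genes Scgb1a1 and Sftpc were near 0 in A0 and present in the other groups (0 to 2 counts against 13 to 102 in a library). Why A0 differed in these genes was not tested, and in comparisons with A0 it cannot be told apart from treatment. The 8 lung and pancreas markers summed to 203 CPM in BA0 replicate 2 and to 21.8 to 32.3 CPM in the other libraries. BA0 replicate 2 is named below for Cxcl13, Cxcl14 and the interferon-stimulated genes, and the part of these transcripts in its levels was not tested. In bulk tissue fewer cells that make a transcript and less transcript per cell cannot be told apart.

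Most chemokines are held low in resting liver and are switched on by alarm signals. Tumour necrosis factor, interleukin 1 and bacterial products act through NF-kB to induce Cxcl1, which draws neutrophils through the receptor Cxcr2, and Ccl2, which draws monocytes through Ccr2. Interferon gamma induces Cxcl9 and Cxcl10, which draw activated T cells and NK cells through Cxcr3. A further set is made without an alarm, of which Cxcl12, made by stromal and endothelial cells and read by Cxcr4 and Ackr3, is the best known.

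Per gene length the ligands were unequal. In RPKM, the reads scaled by gene length and library size as computed by the authors, Cxcl12 averaged 109 over the 12 libraries and lay above each other member in every library. It ranked 613 of 17871 genes. Cxcl1 followed with a mean of 7.71 RPKM, which rested on BA10: it was 25.1 ± 20 RPKM in BA10, 1.86 ± 0.321 in BA0, 2.11 ± 1.43 in A10 and 1.80 ± 0.937 in A0 (SD, n = 3). Next came Ccl6 at 4.37, Cxcl16 at 2.92, Cxcl9 at 2.15, Ccl5 at 1.75, Cxcl10 at 1.44, Cxcl14 at 1.26, Cxcl13 at 0.897 and Ccl2 at 0.768 RPKM. Below Cxcl12 the ranges of all neighbours in this order overlapped over the 12 libraries. Cxcl1 was above Ccl6 in only 4 of the 12 libraries, and Cxcl14 was above Cxcl13 in 6 of the 12. Cxcl12 alone made up 79.9% to 94.3% of the summed CPM of the 10 genes, so that their sum (221 to 376 CPM) followed Cxcl12. Without Cxcl12 the sum was 29.7, 72.8 and 32.5 CPM in BA10, 28.3, 26.4 and 32.1 CPM in BA0, 20.3, 20.5 and 31.0 CPM in A10, and 20.1, 19.1 and 15.4 CPM in A0. The highest of these sums was that of BA10 replicate 2, and the 3 A0 libraries and 2 A10 libraries gave the 5 lowest.

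**Figure D1:**
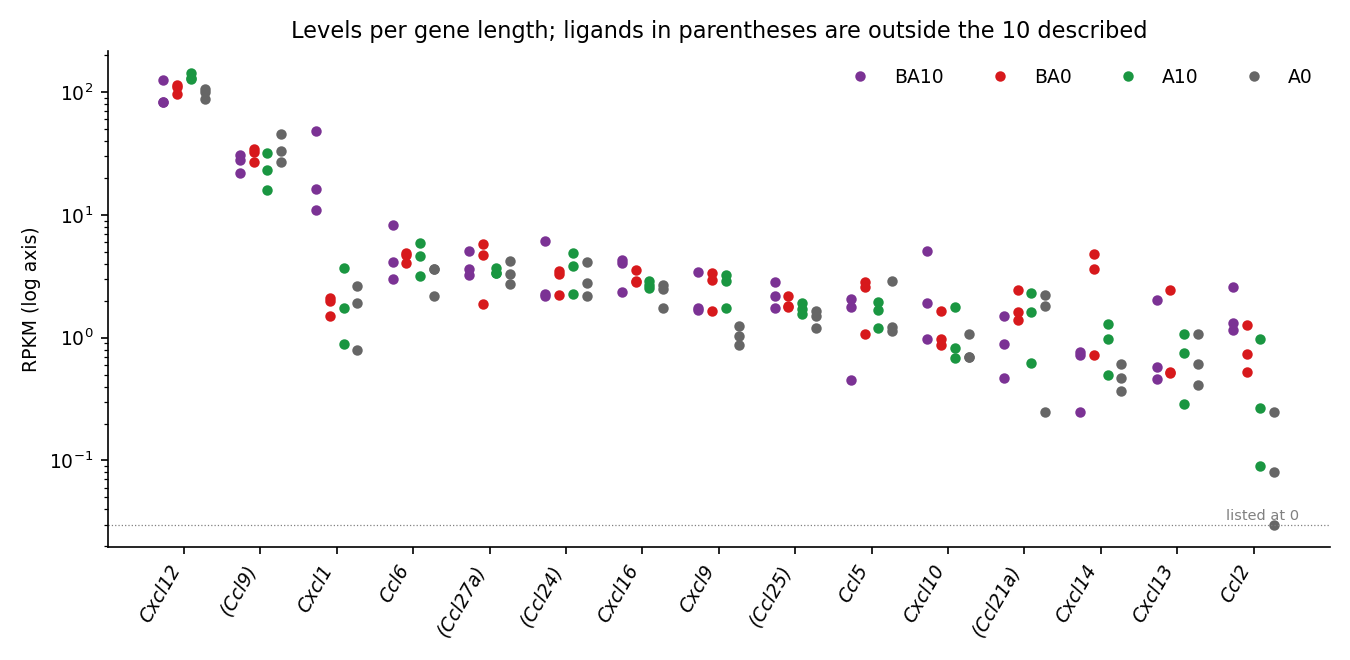
RPKM of the 10 chemokine ligands and of the 5 other ligands with enough counts to be tested (in parentheses) on a log axis, 1 point per library, in the order BA10, BA0, A10 and A0. Cxcl12 (mean 109 RPKM) lies above all the others, Cxcl1 is raised in the 3 BA10 libraries, and Ccl2 was listed at 0 in A0 replicate 3.

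Several of these genes sit beside each other. In the mm10 build Cxcl1 (Entrez gene 14825) lies on chromosome 5 at 90891241 to 90893115 (+ strand), 10755 bases from its closest relative Cxcl2. Cxcl9 (gene 17329, chromosome 5, 92321347 to 92328079, - strand) and Cxcl10 (gene 15945, chromosome 5, 92346638 to 92348889, - strand) are 18558 bases apart. Ccl2 (gene 20296, chromosome 11, 82035571 to 82037453, + strand) is 8258 bases from Ccl7. Ccl5 (gene 20304, chromosome 11, 83525778 to 83530518, - strand) and Ccl6 (gene 20305, chromosome 11, 83587882 to 83593087, - strand) flank Ccl9. Cxcl14 (gene 57266) lies on chromosome 13 at 56288643 to 56296551 (- strand), Cxcl12 (gene 20315) on chromosome 6 at 117168535 to 117181367 (+ strand), Cxcl13 (gene 55985) on chromosome 5 at 95956951 to 95961068 (+ strand) and Cxcl16 (gene 66102) on chromosome 11 at 70453983 to 70459984 (- strand).

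The promoters of Cxcl1 and Cxcl14, which were called in a comparison below, and of the interferon-driven Cxcl9 and Cxcl10 are shown because they differ in the motifs they carry. RefSeq windows (GRCm38.p6, from 250 bases before to 50 bases after the start) were found for 7 of the 10 genes and not for Cxcl16, Ccl2 and Ccl5. Both strands were searched for the ISRE core bound by interferon-activated factors (GAAANNGAA), for the GAS element (TTCNNNGAA), for the NF-kB consensus (GGG, a purine, 2 free bases, 2 pyrimidines and CC) and for AP-1, the site of Fos and Jun (TGANTCA). The 250 bases before the start are printed 5′ to 3′ on the gene's strand, with the matches in capitals. The RefSeq start of Cxcl1 lies a few bases inside the gene position given above. The stretches are chr5:90890995-90891244 (+) for Cxcl1, chr5:92328080-92328329 (-) for Cxcl9, chr5:92348890-92349139 (-) for Cxcl10 and chr13:56296552-56296801 (-) for Cxcl14.
Cxcl1: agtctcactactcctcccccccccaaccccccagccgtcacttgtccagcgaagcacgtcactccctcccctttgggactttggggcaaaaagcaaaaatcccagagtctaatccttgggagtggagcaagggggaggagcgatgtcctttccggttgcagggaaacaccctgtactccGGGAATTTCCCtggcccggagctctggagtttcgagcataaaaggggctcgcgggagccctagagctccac
Cxcl9: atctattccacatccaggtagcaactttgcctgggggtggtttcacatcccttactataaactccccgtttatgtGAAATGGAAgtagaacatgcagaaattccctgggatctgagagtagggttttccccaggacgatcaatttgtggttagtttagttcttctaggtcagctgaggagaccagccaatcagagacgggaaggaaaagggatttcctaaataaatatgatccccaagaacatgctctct
Cxcl10: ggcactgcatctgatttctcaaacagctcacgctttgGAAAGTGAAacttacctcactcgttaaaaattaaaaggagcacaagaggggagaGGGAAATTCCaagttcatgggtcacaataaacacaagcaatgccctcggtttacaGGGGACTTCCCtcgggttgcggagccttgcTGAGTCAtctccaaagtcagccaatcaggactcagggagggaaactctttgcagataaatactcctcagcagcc
Cxcl14: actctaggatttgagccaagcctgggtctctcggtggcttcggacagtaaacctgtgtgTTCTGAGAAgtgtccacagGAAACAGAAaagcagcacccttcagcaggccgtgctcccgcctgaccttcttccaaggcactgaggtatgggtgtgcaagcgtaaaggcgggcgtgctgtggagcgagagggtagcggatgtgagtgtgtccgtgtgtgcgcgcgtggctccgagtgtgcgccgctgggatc

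Positions are counted with 0 at the first transcribed base. Cxcl1 carried 2 overlapping NF-kB matches, 1 on each strand, at -71 to -62 and -70 to -61. Cxcl9 carried an ISRE core at -175 to -167 and an AP-1 match at 31 to 37, beyond the printed stretch. Cxcl10 carried all but the GAS element: an ISRE core at -213 to -205, NF-kB matches at -159 to -150 and, overlapping each other, at -104 to -95 and -103 to -94, and an AP-1 match at -74 to -68. Cxcl14 carried a GAS element at -191 to -183 and an ISRE core at -172 to -164. No match of these 4 motifs was found in the windows of Cxcl12, Cxcl13 and Ccl6. Of all 32851 windows, 8.56% held the ISRE core, 8.3% the GAS element, 8.46% the NF-kB consensus and 7.81% the AP-1 site. A match in letters is a description of the window.

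**Figure D2:**
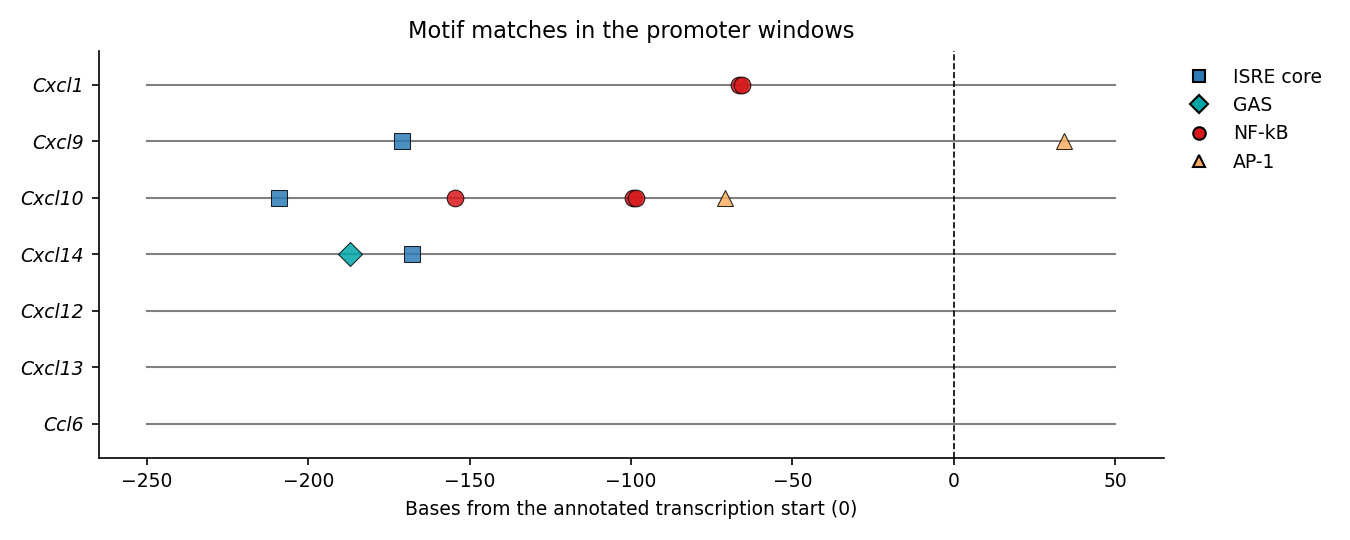
Motif matches in the promoter windows of 7 chemokine ligand genes, from 250 bases before to 50 bases after the transcription start (dashed line at 0), each symbol at the centre of a match. Cxcl1 has 2 overlapping NF-kB matches, Cxcl10 has 3 NF-kB matches with an ISRE core and an AP-1 match, and Cxcl12, Cxcl13 and Ccl6 have none.

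Each gene was compared between groups in 1 edgeR quasi-likelihood fit of all 12 libraries over the 12896 genes with enough counts, and called at a Benjamini-Hochberg adjusted p under 0.05. All 10 members passed the filter on low counts. In BA0 compared to A0, Cxcl14 was higher and the other 9 were not called, against a background of 6.38% of all genes tested. In BA10 compared to A0, Cxcl1 and Ccl2 were higher, 2 of the 10, with a background of 10.1%. No member was called by edgeR in the remaining comparisons. These were BA10 vs BA0 (background 0.0543%, 2 members at an unadjusted p under 0.05, 2 called by DESeq2, 0 by limma-voom), A10 vs A0 (background 3.64%, 1 member at an unadjusted p under 0.05, 1 by DESeq2, 0 by limma-voom) and BA10 vs A10 (background 0.124%, 4 members at an unadjusted p under 0.05, 1 by DESeq2, 0 by limma-voom). The difference between the AOS effect with busulfan and that without it, (BA10 - BA0) - (A10 - A0), also called no member (background 0.0543%, 4 members at an unadjusted p under 0.05, none called by DESeq2 or limma-voom). The comparisons are not independent, since 3 of them share the A0 libraries and 3 share the BA10 libraries. The median log2 fold change of the 10 members was 0.29 in BA0 vs A0, -0.00 in BA10 vs BA0, 0.43 in BA10 vs A0, 0.25 in A10 vs A0 and 0.28 in BA10 vs A10, while that of all genes was 0.03, -0.01, 0.01, 0.03 and -0.00 in the same order. The member medians against A0 without A0 replicates 1 and 2 were 1.12 in BA10, 0.86 in BA0 and 0.57 in A10.

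Groups that do not overlap in CPM were counted as well. In BA0 vs A0 this held for 3 members (Cxcl9, Cxcl14 and Ccl2, all higher), where 34.2% of all genes tested did not overlap. In BA10 vs A0 it held for Cxcl9, Cxcl1 and Ccl2 (background 34.9%), and in A10 vs A0 for Cxcl12 and Cxcl9 (background 26.0%). In BA10 vs BA0 it held for Cxcl1 (higher) and Cxcl14 (lower), with a background of 10.8%. For Cxcl14 these groups overlapped in RPKM. In BA10 vs A10 Cxcl1 and Ccl2 were higher and Cxcl12 was lower without overlap (background 13.5%). The shares of members without overlap in CPM were thus at or below the background in the comparisons with A0. They were above it in the other 2, with 10 genes behind each share.

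**Figure D3:**
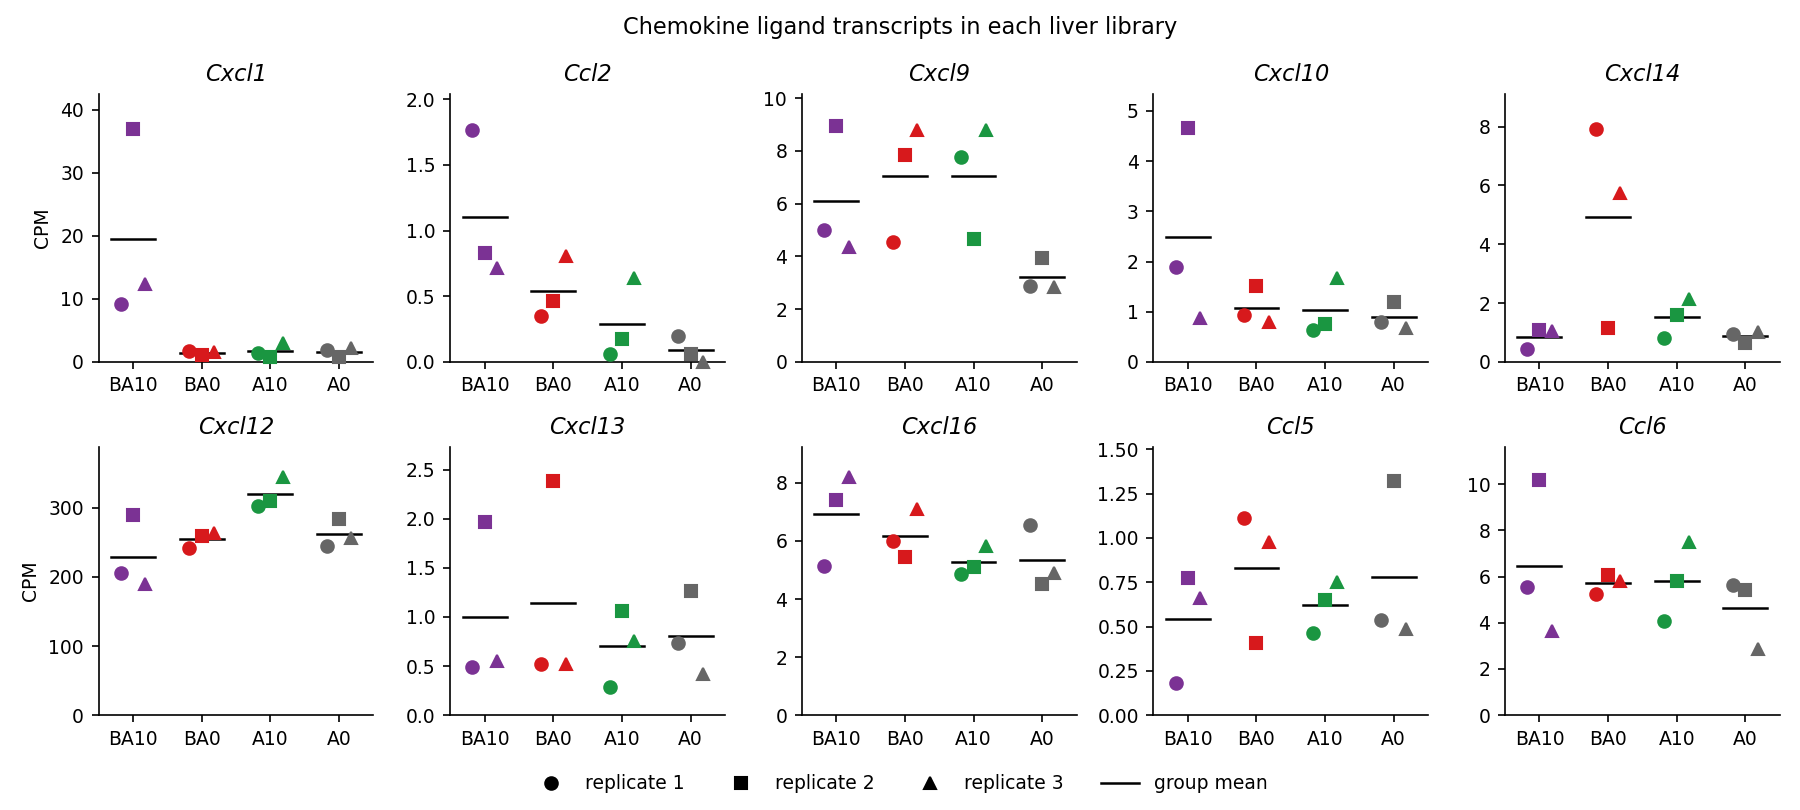
CPM of the 10 chemokine ligands in each library (points, by replicate) with the group mean (line), for BA10, BA0, A10 and A0 from left to right. Cxcl1 is high in all 3 BA10 libraries (9.24, 36.9 and 12.4 CPM), Cxcl14 in 2 of the 3 BA0 libraries, and Cxcl9 is lowest in the 3 A0 libraries.

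Cxcl1, the neutrophil attractant, stood out in the mice given both busulfan and AOS. Its level was 9.24, 36.9 and 12.4 CPM in BA10, 1.69, 1.16 and 1.55 CPM in BA0, 1.39, 0.706 and 2.95 CPM in A10, and 1.87, 0.754 and 2.18 CPM in A0. The BA10 libraries held 151, 714 and 225 counts of it and the others 12 to 51. All 3 BA10 libraries were above all 9 others, which Cxcl1 alone of the 10 members showed and which held for 1.53% of all genes tested. BA10 replicate 2 was 4.0-fold above the lowest BA10 library, while the BA0, A10 and A0 libraries overlapped each other. Compared to A0, Cxcl1 was 12.2-fold higher in BA10 mice (log2 fold change 3.6, SE 0.61, adjusted p = 0.00851 from edgeR), and over the alternative settings this adjusted p was 3.02e-08 to 0.301. The fold stayed within log2 2.75 to 3.91. Without BA10 replicate 2 it was 2.75 on the log2 scale (adjusted p = 0.0196), so the call did not rest on that library. Without A0 replicates 1 and 2 together it was 3.14 and was not called (adjusted p = 0.301).

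The size of the Cxcl1 difference was much the same against each of the other groups, and the calls differed. Compared to BA0 it was 13.3-fold higher in BA10 mice (log2 fold change 3.73, SE 0.61), with an unadjusted p of 6.51e-05 and an adjusted p of 0.0744 from edgeR. Compared to A10 it was 11.6-fold higher (log2 fold change 3.53, SE 0.60, adjusted p = 0.0631). DESeq2 called both, with adjusted p of 2.75e-08 and 1.48e-07, as did edgeR with no filter on low counts (0.0429 and 0.032) and without A10 replicate 3 (0.046 and 0.0224). In BA0 vs A0 the log2 fold change of Cxcl1 was -0.13 (SE 0.65) and in A10 vs A0 it was 0.07 (SE 0.65). The AOS effect with busulfan minus that without it was 3.66 on the log2 scale (SE 0.88, unadjusted p = 0.00147, adjusted p = 0.17 from edgeR).

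The 5 tested genes whose log2 CPM was most like that of Cxcl1 over the 12 libraries were Nr4a1 (Pearson r = 0.95), Nfkbiz (0.93), Tnfaip3 (0.93), Fos (0.89) and Spry4 (0.89). The points of such a correlation share the libraries and their depth. Nr4a1 and Fos belong to the immediate-early genes, whose transcription starts very soon after a cell is stimulated, and Tnfaip3 and Nfkbiz are feedback genes of NF-kB. Fos averaged 18.4 CPM in BA10, 0.617 CPM in BA0, 1.31 CPM in A10 and 0.796 CPM in A0. Its library order within BA10 was not that of Cxcl1: Fos was 26.2, 16 and 12.8 CPM, with replicate 1 highest. Their part in the level of Cxcl1 was not tested.

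Of 18 NF-kB feedback and target genes, 15 were tested, and in BA10 compared to A0 4 were higher (Tnfaip3, Nfkbiz, Nfkbia and Il1b) and 1, the acute-phase gene Saa1, was lower. Saa1 (adjusted p = 0.0491 from edgeR) was the only one called lower by edgeR, while DESeq2 called 4 higher and 2 lower. With limma-voom, and with length and GC trends removed, 4 were called higher and 0 lower. The median log2 fold change of the 15 genes was 0.33 (0.45 without A0 replicates 1 and 2), against 0.01 over all genes. The summed level of the 18 genes was 161, 221 and 153 CPM in BA10 and 169, 127 and 147 CPM in BA0. It was 147, 139 and 182 CPM in A10, and 411, 171 and 155 CPM in A0. A0 replicate 1 thus had the highest sum, and BA10 overlapped A0. Tnfaip3, which encodes the brake protein A20, was 5.02, 11.9 and 5.95 CPM in BA10, 1.52, 2.09 and 2.87 CPM in BA0, 1.74, 2.00 and 2.66 CPM in A10, and 1.2, 1.07 and 1.82 CPM in A0. As with Cxcl1, BA10 replicate 2 was the highest library, and BA10 overlapped none of the others (log2 fold change 2.48 against A0, SE 0.38, adjusted p = 0.00587 from edgeR). Il1b, which encodes interleukin 1 beta, was 7.10, 6.36 and 5.35 CPM in BA10 and 0.816, 0.870 and 1.78 CPM in BA0, and was the 1 gene of the list called between them (log2 fold change 2.43, SE 0.34, adjusted p = 0.0347). Without A0 replicates 1 and 2 neither was called (adjusted p = 0.284 for Tnfaip3 in BA10 vs A0 and 0.0513 for Il1b in BA10 vs BA0).

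Ccl2, the monocyte attractant, was sparse and graded over the groups. It was 1.77, 0.828 and 0.717 CPM in BA10, 0.350, 0.464 and 0.803 CPM in BA0, 0.058, 0.176 and 0.636 CPM in A10, and 0.201, 0.0629 and 0 CPM in A0. Behind these values were 29, 16 and 13 counts in BA10, 6, 8 and 14 in BA0, 1, 3 and 11 in A10, and 3, 1 and 0 in A0. BA10 was above A10 and A0 without overlap and overlapped BA0, and every BA0 library was above every A0 library. With 58 counts in BA10 and 4 in A0 the ratio of the levels was 12.8 (95% interval 4.73 to 48.4), for BA0 over A0 it was 6.4 (2.24 to 25.1), for A10 over A0 3.44 (1.1 to 14.3), for BA10 over BA0 2.0 (1.25 to 3.25) and for BA10 over A10 3.71 (2.07 to 7.04). These exact intervals cover counting error only.

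By edgeR the increase of Ccl2 in BA10 compared to A0 was called (log2 fold change 3.58, SE 0.89, adjusted p = 0.032). The adjusted p was 0.00694 to 0.296 over the alternative settings, and the call was lost without any 1 of the 3 BA10 or the 3 A0 libraries (0.0517 to 0.115). Without both of A0 replicates 1 and 2 only a library with 0 counts was left in A0 and the adjusted p was 0.296. The increase in BA0 compared to A0 was not called (log2 fold change 2.57, SE 0.95, adjusted p = 0.109), nor was that in A10 (1.69, SE 1.03, adjusted p = 0.33) or the difference between BA10 and BA0 (1.02, SE 0.67, adjusted p = 1). The neighbouring gene Ccl7, which also draws monocytes through Ccr2, was too low to be tested, with 12 counts in BA10, 7 in BA0, 5 in A10 and 4 in A0. Genes most like Ccl2 over the 12 libraries were Uspl1 (r = 0.96), Hsph1 (0.95), Zfand2a (0.95), Txnip (0.94) and Gja1 (0.94). Hsph1 encodes a heat shock protein, and its mean level was 248 CPM in BA10, 120 CPM in BA0, 86.9 CPM in A10 and 47.6 CPM in A0. A group order like that of Ccl2 largely follows from picking genes by their likeness to Ccl2 in these libraries.

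Cxcl14, a chemokine made by many epithelia without an alarm signal, was the 1 member called after busulfan alone. It was 7.92, 1.16 and 5.74 CPM in BA0, against 0.936, 0.629 and 1.03 CPM in A0. In the AOS groups it was 0.428, 1.09 and 1.05 CPM in BA10 and 0.812, 1.59 and 2.14 CPM in A10. BA0 replicates 1 and 3 (136 and 100 counts) were above the 10 other libraries, which held 7 to 37 counts, while BA0 replicate 2 (20 counts) lay within the range of A10 and close to BA10 and A0. Compared to A0, Cxcl14 was 5.67-fold higher in BA0 mice (log2 fold change 2.50, SE 0.62, adjusted p = 0.0437 from edgeR). The call was not firm. It was lost without A0 replicate 1 or 2, BA0 replicate 1 or 3, A10 replicate 2 or any BA10 replicate, and the adjusted p ran from 0.0023 to 0.559 over the alternative settings, 8 of which called it. Without BA0 replicate 2 it was 0.0321. Without A0 replicates 1 and 2 the log2 fold change was 2.23 (adjusted p = 0.559).

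In CPM Cxcl14 was lower in each BA10 library than in every BA0 library, by a narrow margin. BA10 replicate 2 had 1.09 CPM from 21 counts, and BA0 replicate 2 had 1.16 CPM from 20 counts. In RPKM the order of these 2 libraries was reversed (0.76 and 0.72), and the groups overlapped. The log2 fold change of BA10 against BA0 was -2.51 (SE 0.62, a ratio of 0.176), with an unadjusted p of 0.0017 and an adjusted p of 0.61 from edgeR. DESeq2 called it (adjusted p = 0.0194), and edgeR did without BA0 replicate 2 (0.0395). The AOS effect with busulfan minus that without it was -3.31 (SE 0.89, unadjusted p = 0.00311, adjusted p = 0.182 from edgeR). Against A0 the level in BA10 differed by -0.01 on the log2 scale (SE 0.68). The genes most like Cxcl14 were the unnamed gene BGIG10090_47617 (r = 0.85), Myh10 (0.82), Srcap (0.81), Cib3 (0.79) and Pdzd2 (0.79), and Cib3 averaged 1.88 CPM in BA10, 6.25 CPM in BA0, 2.33 CPM in A10 and 0.887 CPM in A0.

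**Figure D4:**
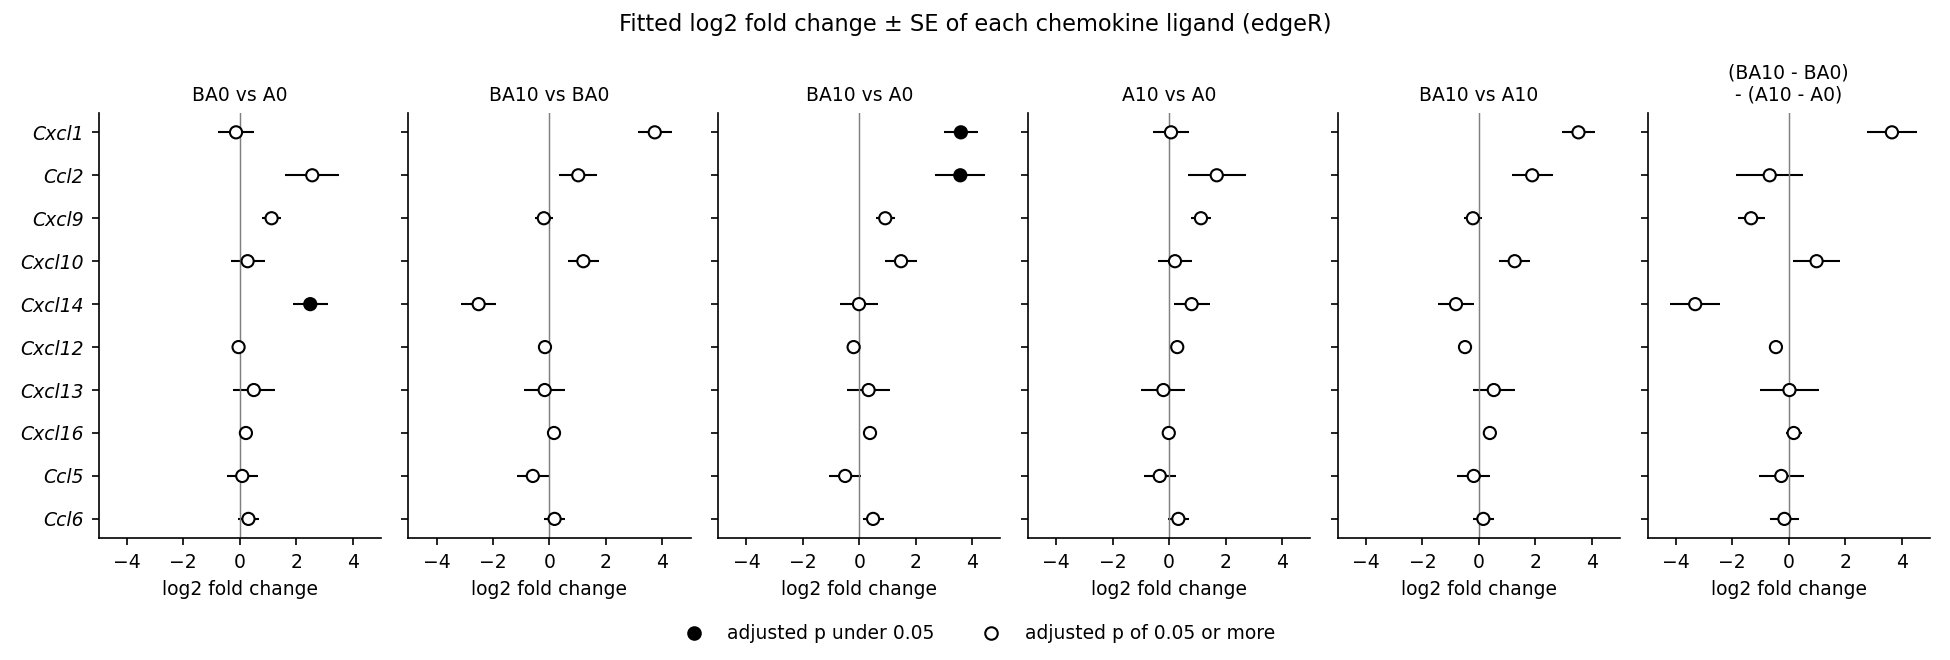
Fitted log2 fold change of each chemokine ligand with its SE (bars) in the 6 comparisons, with filled points for genes called by edgeR. The called points are Cxcl14 in BA0 vs A0 (2.50) and Cxcl1 (3.6) and Ccl2 (3.58) in BA10 vs A0. In (BA10 - BA0) - (A10 - A0) Cxcl1 (3.66) and Cxcl14 (-3.31) lie farthest from 0 and are open.

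The interferon-driven pair, Cxcl9 and Cxcl10, differed in group pattern, though both were highest in BA10 replicate 2. Cxcl9 was 5.02, 8.95 and 4.36 CPM in BA10, 4.55, 7.83 and 8.78 CPM in BA0, 7.77, 4.65 and 8.78 CPM in A10, and 2.88, 3.96 and 2.85 CPM in A0. All 3 A0 libraries were below all 9 others, which held for 7.92% of all genes tested, and the 3 treated groups overlapped each other. Its mean was 6.11 ± 2.48 CPM in BA10, 7.05 ± 2.22 CPM in BA0, 7.07 ± 2.16 CPM in A10 and 3.23 ± 0.635 CPM in A0 (SD, n = 3). The log2 fold change against A0 in the edgeR fit was 0.92 for BA10 (SE 0.34, adjusted p = 0.103), 1.13 for BA0 (SE 0.34, adjusted p = 0.0663) and 1.13 for A10 (SE 0.34, adjusted p = 0.081), and none was called. DESeq2 called the last 2 (adjusted p = 0.0217 and 0.024). Without A0 replicates 1 and 2 the values were 1.08, 1.28 and 1.29 in the same order, with adjusted p of 0.512, 0.537 and 0.758. Between BA10 and BA0 the log2 difference was -0.20 (SE 0.33).

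Cxcl10 was 1.90, 4.66 and 0.882 CPM in BA10, 0.932, 1.51 and 0.803 CPM in BA0, 0.638, 0.764 and 1.68 CPM in A10, and 0.803, 1.19 and 0.666 CPM in A0. Only 1 library, BA10 replicate 2, was clearly apart, with 90 counts against 11 to 31 in the others. All 4 groups overlapped. The log2 fold change in BA10 was 1.48 against A0 (SE 0.58, adjusted p = 0.113), 1.2 against BA0 (SE 0.56, adjusted p = 1) and 1.27 against A10 (SE 0.56, adjusted p = 0.547). Without BA10 replicate 2 these values were 0.64, 0.35 and 0.43. In BA0 compared to A0 the value was 0.28 (SE 0.60) and in A10 compared to A0 0.21 (SE 0.60), and without A0 replicates 1 and 2 these were 0.67 and 0.60. Over the alternative settings the BA10 vs A0 value was 0.64 to 1.88, none of them called. Cxcl11, the next gene on the chromosome and the other Cxcr3 ligand, is annotated as a polymorphic pseudogene and was not in the table.

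Of 30 interferon-stimulated genes, which mark a response to type I interferon, all 30 were tested, and in BA0 vs A0 the fitted value was above 0 for 30 of them. Their median was 1.53 in BA0, 0.37 in BA10 and 0.98 in A10 against A0, and -0.95 in BA10 compared to BA0. The first 3 were 1.86, 0.67 and 1.32 without A0 replicates 1 and 2. None was called by edgeR in any of these (10, 1, 2 and 2 genes at an unadjusted p under 0.05), 6 were called higher in BA0 vs A0 by DESeq2, and none by limma-voom. The summed level was 457, 809 and 529 CPM in BA10, 494, 1360 and 806 CPM in BA0, 488, 509 and 971 CPM in A10, and 482, 552 and 409 CPM in A0. In each treated group 1 or 2 libraries were high and the rest lay within the A0 range. The same libraries, BA10 replicate 2, BA0 replicates 2 and 3 and A10 replicate 3, had Cxcl9 levels of 7.83 to 8.95 CPM. A10 replicate 1 had 7.77 CPM of Cxcl9 at a summed level of 488 CPM.

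Of 22 genes induced by interferon gamma, 19 were tested, 16 of them above 0 on the log2 scale in BA0 vs A0 (median 0.70). Gbp7 was called there by edgeR, DESeq2 called 3 genes, and none was called with limma-voom, with trends removed or without A0 replicates 1 and 2. Gbp7 lay at the threshold (adjusted p = 0.05 after rounding, edgeR), with 10.3, 33.9 and 17.6 CPM in BA0 and 6.96, 9.56 and 7.15 CPM in A0. Medians of the list against A0 were 0.22 in BA10 and 0.48 in A10 (0.38 and 0.65 without A0 replicates 1 and 2). By edgeR 0 genes were called in BA10 or A10 compared to A0 (0 and 4 at an unadjusted p under 0.05, 0 and 1 by DESeq2, 0 by limma-voom). The 5 genes most like Cxcl9 were Fgl2 (r = 0.94), Il18bp (0.91), Tmod3 (0.91), Aida (0.90) and Myo1d (0.89), and the first of these are known interferon gamma targets. Those most like Cxcl10 were Tnfrsf12a (r = 0.92), Gadd45b (0.91), Slc15a3 (0.86), Rbm8a (0.86) and Lpxn (0.84). The 2 sets of 5 shared no gene, but sets this small out of 12896 genes cannot show whether the 2 ligands moved alike. Both ligands were highest in BA10 replicate 2. Cxcr3, their common receptor, had 0 to 6 counts in a library and was not tested.

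**Figure D5:**
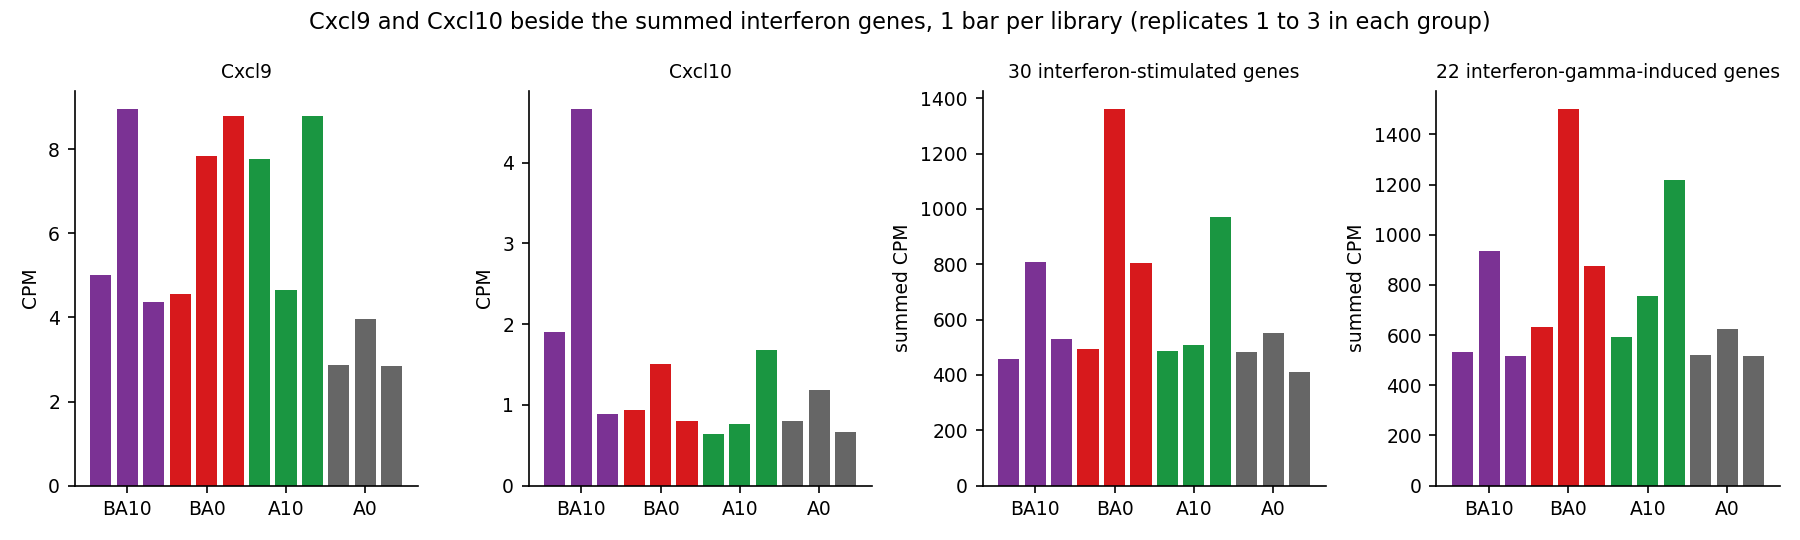
Cxcl9, Cxcl10 and the summed CPM of 30 interferon-stimulated and 22 interferon-gamma-induced genes, 1 bar per library in the order BA10, BA0, A10 and A0. Cxcl9 is lowest in the 3 A0 libraries (2.85 to 3.96 CPM), Cxcl10 is high in BA10 replicate 2 (4.66 CPM), and the interferon-stimulated sum is highest in BA0 replicate 2 (1360 CPM).

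Cxcl12, the most abundant of the ligands and a retention signal for blood stem cells and lymphocytes, varied little. It was 206, 289 and 189 CPM in BA10, 242, 259 and 263 CPM in BA0, 303, 310 and 345 CPM in A10, and 245, 283 and 256 CPM in A0. Its highest library was 1.83-fold above its lowest. The 3 A10 libraries were above those of the other groups, while BA10 held both the lowest 2 values and 1 value (289 CPM) above the A0 maximum. The log2 fold change was 0.29 in A10 compared to A0 (SE 0.14, adjusted p = 0.231 from edgeR) and -0.49 in BA10 compared to A10 (SE 0.14, unadjusted p = 0.00538, adjusted p = 0.261). In BA0 compared to A0 it was -0.04 (SE 0.14) and in BA10 compared to BA0 -0.16 (SE 0.14). None was called under any setting. Its receptors were low, with Cxcr4 at 3 to 15 counts and Ackr3 at 3 to 15 counts in a library. In BA10 compared to A10 Cxcr4 was higher without overlap and was not called (log2 fold change 1.23, SE 0.54, adjusted p = 0.542).

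Cxcl16, which is held on the cell membrane, is shed by proteases and is read by Cxcr6 on liver NKT cells, was also steady. It was 5.14, 7.40 and 8.22 CPM in BA10, 6.0, 5.45 and 7.11 CPM in BA0, 4.87, 5.12 and 5.84 CPM in A10, and 6.56, 4.53 and 4.91 CPM in A0. The highest library was 1.82-fold above the lowest and all groups overlapped. The log2 fold change in BA10 was 0.38 against A0 (SE 0.20, adjusted p = 0.232) and 0.39 against A10 (SE 0.20, adjusted p = 0.631).

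Ccl6, a rodent chemokine of macrophages and neutrophils that acts through Ccr1, was 5.57, 10.2 and 3.64 CPM in BA10, 5.24, 6.09 and 5.79 CPM in BA0, 4.06, 5.82 and 7.51 CPM in A10, and 5.62, 5.41 and 2.85 CPM in A0. BA10 replicate 2 was the highest library and A0 replicate 3 the lowest, and all groups overlapped. The log2 fold changes against A0 were 0.49 in BA10 (SE 0.37), 0.31 in BA0 (SE 0.37) and 0.33 in A10 (SE 0.37), with adjusted p of 0.394, 0.61 and 0.607 from edgeR. They were 1.16, 0.98 and 1.01 without A0 replicates 1 and 2, none called.

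Cxcl13, the B cell attractant read by Cxcr5, had 5 to 41 counts in a library. It was 0.489, 1.97 and 0.551 CPM in BA10, 0.524, 2.38 and 0.516 CPM in BA0, 0.290, 1.06 and 0.751 CPM in A10, and 0.736, 1.26 and 0.424 CPM in A0. In each of the 4 groups the same-numbered library, replicate 2, was the highest. No comparison was called, with log2 fold changes of -0.20 to 0.53 and adjusted p of 0.689 to 1 between pairs of groups. The 6 B cell markers in the table summed to 0.918, 1.97 and 0.937 CPM in BA10, 1.98, 2.84 and 1.43 CPM in BA0, 1.57, 3.41 and 2.08 CPM in A10, and 4.08, 4.46 and 2.79 CPM in A0, and replicate 2 was the highest library in each group there too. Their part in the level of Cxcl13 was not tested.

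Ccl5, made by T cells, NK cells and platelets, had 3 to 21 counts in a library. It was 0.184, 0.776 and 0.662 CPM in BA10, 1.11, 0.406 and 0.975 CPM in BA0, 0.464, 0.647 and 0.751 CPM in A10, and 0.535, 1.32 and 0.485 CPM in A0. All groups overlapped and the log2 fold changes between pairs of groups lay between -0.59 and 0.09, with SE of 0.55 to 0.58. The 12 T and NK cell markers in the table summed to only 3.39 to 10.1 CPM, and A0 replicate 2 was the highest library for both. Of these markers 2 were tested, and Cd4 was lower in BA10 compared to A0 (log2 fold change -1.38, SE 0.34, adjusted p = 0.0308 from edgeR). DESeq2 called 1 of them lower there, and also 1 in BA0 and 1 in A10 compared to A0, while limma-voom called 0. Cd4 was 6.29, 7.23 and 2.60 CPM in A0, so its high values were those of A0 replicates 1 and 2, set apart above. It averaged 2.06 CPM in BA10, 2.37 CPM in BA0 and 2.23 CPM in A10. The part of T and NK cells in the level of Ccl5 was not tested.

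The high value of Cxcl1 in BA10 replicate 2 was not its only one. This library held the highest level of 4 of the 10 members, Cxcl1, Cxcl9, Cxcl10 and Ccl6, while each of the other 11 libraries held the highest level of 0 or 1. How many of all genes tested were highest in this library was not counted, so there is no background for the 4. Its total was 18174587 counts, the largest of the 12, with 18108434 in A0 replicate 2 next, and CPM is scaled to the total. Among the marker lists it also had the highest sum for neutrophil and monocyte genes (7.95, 15.3 and 9.98 CPM in BA10 against 7.30 to 13.1 CPM in the other groups) and, within BA10, for Kupffer cell and macrophage genes (534, 767 and 542 CPM). Of the 11 neutrophil and monocyte markers, Mpo and Ly6g were at 0 counts in all of BA10. Their part in the level of these 4 ligands was not tested.

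Of 31 other chemokine ligands, 26 were in the table and 5 had enough counts to be tested. The 3 most abundant were Ccl9 at 29.4 RPKM, Ccl27a at 3.75 RPKM and Ccl24 at 3.31 RPKM on average over the 12 libraries. Ccl9, a rodent Ccr1 ligand, was thus second to Cxcl12 among all ligands. It averaged 75.4 ± 16.1 CPM in BA10, 87.2 ± 12 CPM in BA0, 66.3 ± 22.1 CPM in A10 and 113 ± 36.1 CPM in A0 (SD, n = 3), with a log2 fold change of -0.77 in A10 (SE 0.27, adjusted p = 0.109) and -0.59 in BA10 (SE 0.27, adjusted p = 0.162) against A0. None of the 5 was called by edgeR in any comparison (0 to 1 at an unadjusted p under 0.05 in each, 1 by DESeq2 in A10 vs A0 and 0 by limma-voom). Cxcl2, the neighbour of Cxcl1 and also a Cxcr2 ligand, was too low to be tested, with 1, 9 and 4 counts in BA10, 0, 0 and 1 in BA0, 1, 3 and 1 in A10, and 0, 1 and 1 in A0. Ccl27a and Ccl21a have near-identical copies (Ccl27b, Ccl21b and Ccl21c), between which the counting may have split reads.

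Of 25 chemokine receptors, 24 were in the table and 12 were tested, and none was called by edgeR, DESeq2 or limma-voom in any comparison (1 to 3 at an unadjusted p under 0.05 in each). The 3 with the highest mean RPKM were Ackr1 (2.09), Ccr3 (1.34) and Ackr2 (0.82). The median log2 fold change of the 12 against A0 was 0.39 in BA10, 0.57 in BA0 and 0.61 in A10, and without A0 replicates 1 and 2 it was 0.88, 1.04 and 0.65 in the same order. Cxcr2, through which Cxcl1 acts on neutrophils, had 11, 12 and 5 counts in BA10, 12, 3 and 5 in BA0, 2, 2 and 5 in A10, and 4, 4 and 2 in A0. Its log2 fold change in BA10 compared to A10 was 1.54 (SE 0.63, adjusted p = 0.5). Ccr2, the receptor of Ccl2, had 5, 13 and 6 counts in BA10, 15, 8 and 13 in BA0, 8, 11 and 26 in A10, and 5, 4 and 8 in A0, an order unlike that of Ccl2.

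Markers of the cells that could make or answer these ligands moved as follows. The 12 sinusoidal endothelial markers summed to 302 to 393 CPM in BA10, 266 to 325 CPM in BA0, 230 to 319 CPM in A10 and 166 to 172 CPM in A0. All 12 were called higher in BA10, 8 in BA0 and 6 in A10 compared to A0, and 0 in BA10 compared to BA0 (3 at an unadjusted p under 0.05, none called by DESeq2 or limma-voom). With length and GC trends removed the counts against A0 were 12, 4 and 0 in the same order, and without A0 replicates 1 and 2 they were 0, 0 and 0, at medians of 1.09, 0.76 and 0.74 on the log2 scale. The 16 Kupffer cell and macrophage markers summed to 534 to 767 CPM in BA10, 561 to 776 CPM in BA0, 532 to 802 CPM in A10 and 404 to 574 CPM in A0. The genes of smallest p were Cd163, a haemoglobin scavenger receptor, Mrc1, the mannose receptor, and Slc40a1, the iron exporter. Mrc1 averaged 50 ± 5.25 CPM in BA10 and 18.5 ± 2.24 CPM in A0 (SD, n = 3; log2 fold change 1.43, adjusted p = 0.00281 from edgeR). It was also called higher than in A0 by edgeR in BA0 (1.23, adjusted p = 0.0154) and in A10 (1.21, adjusted p = 0.0368). In BA10 compared to A0 Cd163 went the other way, at 1.43 ± 0.715 CPM in BA10 and 5.13 ± 1.01 CPM in A0 (log2 fold change -1.83, adjusted p = 0.0155 from edgeR). Cd163 was also lower in BA10 than in BA0, at 7.97 ± 3.16 CPM (log2 fold change -2.46, adjusted p = 0.042 from edgeR). Mrc1 averaged 43.4 CPM in BA0 and was not called between BA10 and BA0. Neither was called without A0 replicates 1 and 2 (Mrc1 1.38, adjusted p = 0.185), and limma-voom did not call Cd163 in BA10 vs BA0. Stellate cell and fibroblast markers, 12 in number, summed to 302 to 397 CPM in BA10, 318 to 471 CPM in BA0, 291 to 378 CPM in A10 and 231 to 307 CPM in A0, and the 6 cholangiocyte markers to 15.7 to 26.7, 21.5 to 36.2, 25.8 to 36.2 and 26.7 to 33.1 CPM in the same order. The endothelial sums were lowest in the A0 libraries, and those of BA10 overlapped BA0 and A10. All 12 endothelial markers were above 0 on the log2 scale in BA10 compared to BA0 (median 0.27) and to A10 (median 0.33). By edgeR 0 were called in either. Of the 8 hepatocyte markers, edgeR called Tat and Cps1 higher and Apoa1 lower in BA10 compared to A0. DESeq2 called 2 higher and 3 lower there, and limma-voom 1 and 1. The part of any cell type in the level of a ligand was not tested.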

How the data were processed

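Livers of 12 libraries in 4 groups of 3 were sequenced as poly(A) RNA on an Illumina HiSeq. The authors aligned reads to reference genes with SOAPaligner (mm10 per the submitters' processing notes). The estimated counts per gene, as deposited, were not all whole numbers and were rounded here, and the RPKM values were computed by the authors from length and depth. The gene annotation, the strand of the kit and the way reads with several hits entered the counts are not stated, so overlapping genes and near-identical copies may share counts. All 12 libraries were fitted with edgeR 4.0.16 (R 4.3.3, TMM, filterByExpr with a count minimum of 10, quasi-likelihood test), p-values were adjusted over 12896 genes, and a gene was called at an adjusted p under 0.05. The filter, DESeq2 1.42.0 in place of edgeR, limma-voom (limma 3.58.1) and other settings were tried, and the scripts were tested on simulated data. Replicate numbers were not treated as pairs in the main fit. Besides the 10 members, genes were named by a rule: up to 3 per list with the smallest p among those called, or the highest mean RPKM for ligands and receptors, and the 5 genes most like each of Cxcl1, Ccl2, Cxcl9, Cxcl10 and Cxcl14 by Pearson r of log2(CPM + 0.5). The rule on called genes was not carried out for the sinusoidal endothelial and the stellate cell lists. Cxcl2, Ccl7 and the receptors beside a ligand were named for their position or role, and Nfkbia, Saa1 and Gbp7 after their values were seen. Members and lists were chosen with earlier results of these data known.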

Additional observations from a re-analysis of the deposited data

Results flagged for a closer look

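For 3 marker genes the edgeR interaction term, the AOS effect with busulfan minus that without it, was called. Cd163, a macrophage scavenger receptor, averaged 1.43 ± 0.715 CPM in BA10 and 7.97 ± 3.16 CPM in BA0, against 11.2 ± 1.17 CPM in A10 and 5.13 ± 1.01 CPM in A0 (SD, n = 3; difference of the log2 effects -3.58, adjusted p = 0.0238). Scgb1a1, a lung club cell gene, had 86, 86 and 92 counts in BA10, 70, 83 and 97 in BA0, 63, 102 and 82 in A10, and 0, 1 and 2 in A0 (adjusted p = 7.01e-04). Sftpc, a lung surfactant gene, had 23, 13 and 26 counts in BA10, 23, 35 and 33 in BA0, 24, 28 and 37 in A10, and 0 in each A0 library (adjusted p = 0.00994). For both lung genes BA10, BA0 and A10 overlapped each other and A0 was near or at 0. The fitted differences thus reflect the low A0 values and are no bounds. None of the 10 chemokine ligands passed this test. With DESeq2 neither lung gene was called for this difference, while limma-voom called 2 lung markers and 1 macrophage marker. Without A0 replicates 1 and 2 no macrophage marker was called, Cd163 included, and 1 lung marker was.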

How the results depend on the processing

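The increase of Cxcl1 in BA10 vs A0 was called in 21 of 22 alternative settings, that of Ccl2 in 14 and that of Cxcl14 in BA0 vs A0 in 8. In BA0 vs A0 the number of members called was 2 with DESeq2 and 0 with limma-voom, with the replicate block, with length and GC trends removed (with or without the block), without A0 replicates 1 and 2 together and with the libraries of the 2 groups only. It was 0 to 1 when 1 library was left out. In BA10 vs BA0 it was 1 with no filter, 2 with DESeq2 and 0 to 1 with 1 library left out. In BA10 vs A0 it was 1 with trends removed and the block, 0 without A0 replicates 1 and 2, and 1 to 2 with 1 library left out. In A10 vs A0 it was 1 with DESeq2, and in BA10 vs A10 it was 1 with no filter, 1 with DESeq2 and 0 to 1 with 1 library left out. The cause was not tested.

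Some uncalled log2 fold changes turned sign. For Cxcl14 in BA10 vs A0 the value was 0.05 with the block, 0.19 with trends removed and 0.24 with both. In A10 vs A0 Cxcl1 was -0.03 with limma-voom and -0.39 without A0 replicates 1 and 2. Cxcl16 there was 0.01 with limma-voom, 0.05 with trends removed, 0.04 with the block added and 0.08 without those A0 libraries, Ccl5 was 0.02, 0.03 and 0.33 under the last 3 of these settings, and Cxcl13 was 0.69 under the last. Without those A0 libraries Ccl5 in BA10 vs A0 was 0.15 and the difference of AOS effects for Cxcl13 was -0.86.

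With 1 library left out, values that crossed 0 in BA0 vs A0 were Cxcl1 (-0.49 to 0.17), Cxcl10 (-0.03 to 0.54), Cxcl12 (-0.10 to 0.00), Cxcl13 (-0.62 to 0.95) and Ccl5 (-0.17 to 0.68). In BA10 vs BA0 they were Cxcl13 (-1.12 to 0.95) and Ccl6 (-0.31 to 0.47). In BA10 vs A0 they were Cxcl14 (-0.21 to 0.28), Cxcl13 (-0.62 to 0.78), Ccl5 (-0.85 to 0.08) and Ccl6 (-0.01 to 0.77). In A10 vs A0 they were Cxcl1 (-0.61 to 0.43), Cxcl10 (-0.34 to 0.46), Cxcl13 (-0.62 to 0.26), Cxcl16 (-0.14 to 0.14) and Ccl5 (-0.58 to 0.26). In BA10 vs A10 they were Cxcl13 (-0.42 to 0.95), Ccl5 (-0.53 to 0.21) and Ccl6 (-0.33 to 0.45), and for the difference of AOS effects Cxcl13 (-0.92 to 1.15), Ccl2 (-1.92 to 0.59), Ccl5 (-0.86 to 0.14) and Ccl6 (-0.64 to 0.14).

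The library titles give a replicate number without saying what it stands for. The correlation of deviations over 18 same-numbered pairs was -0.07 to 0.14 (median 0.03). Over 36 pairs with different numbers it was -0.2 to 0.17 (median 0), and 5 of 12 libraries correlated best with their own number. A correlation over all genes cannot show whether same-numbered libraries shared a step of the work. With the replicate block Cxcl14 in BA0 vs A0 was 2.44 (adjusted p = 0.0547).

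Over all genes DESeq2 called 875 higher and 780 lower in BA0 vs A0, 32 and 5 in BA10 vs BA0, 680 and 623 in A10 vs A0, 117 and 37 in BA10 vs A10 and 168 and 105 for the difference of effects, where edgeR called 527 and 296, 6 and 1, 276 and 193, 12 and 4, and 4 and 3. With trends removed edgeR called 67 and 39 in BA0 vs A0, 383 and 194 in BA10 vs A0 (896 and 411 before) and 2 and 1 in A10 vs A0. Depth limits Ccl2, Ccl5 and Cxcl13 most, with 0 to 41 counts in a library.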
